A study of Mus musculus with 60 samples.

Results

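Genes that mark fibroblasts and mesenchyme were followed from the donor cell into the cloned embryo: Twist1, Twist2, Prrx1, Snai2, Thy1, Pdgfrb, Postn, Fn1, Vim and Acta2. They were chosen by name with earlier results of these data known, and all 10 of them are among the 27238 genes of the expression table. The table gives RPKM, reads on a gene scaled by its exon length and by the depth of the library, for 60 mouse libraries in 20 groups of 3. The donor groups are cumulus cells (CCs) of superovulated BDF1 females and embryonic fibroblasts (MEFs) grown at low passage from BDF1 fetuses, which for use as donors were held in low serum. NTC and NTM embryos are BDF1 oocytes whose spindle was replaced by a CC or a MEF nucleus, activated with strontium chloride and cytochalasin B, exposed to Scriptaid and cultured in vitro. In vivo embryos came from superovulated C57BL/6 females mated with DBA2 males. Each embryo type was sampled at 6 stages, from the 1-cell embryo over the 2-cell, 4-cell and 8-cell embryo to the morula and the blastula, and each of the 54 embryo libraries is 1 embryo picked by its morphology. Oocyte strain, activation and culture differ between NT and in vivo embryos together with the nucleus, and these cannot be told apart. The number of cells in a CC or MEF library is not given in the sources used here.

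Mesenchymal cells are held in their state by transcription factors of the Twist, Prrx and Snail families, which also drive epithelial cells to leave their sheet. Fibroblasts derived from mesenchyme carry receptors such as PDGFR beta, secrete a matrix of fibronectin, periostin and collagens, and keep an internal frame of vimentin and, when contractile, smooth muscle actin. The embryo before implantation has no mesenchyme. It builds its outer layer as an epithelium.

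The libraries held 5294167 to 47830132 reads on genes (median 15451428), and every donor library (31558140 or more) was deeper than every embryo library (26281508 or fewer). Over 13535 genes, the library most like a given library was of the same stage or donor for 53 of 60. Of the other 7, in vivo 2-cell replicates 1 and 3 were nearest to a 1-cell embryo (r = 0.928 and 0.816). Every test with in vivo 2-cell embryos below includes both unless it says otherwise. The rest were NTC 4-cell replicate 1, NTM 4-cell replicates 1 and 3 and NTM 8-cell replicates 1 and 3. The 3 in vivo blastulas were the least alike of all groups (mean r with the other 2 libraries 0.711 to 0.715). The CC libraries, the reference of the donor comparison, had 0.749 to 0.768. In MEFs the epithelial list summed to 0 to 4.44 RPKM over 15 genes, and the endothelial genes Cdh5, Kdr, Tek and Tie1 were listed at 0. The blood list reached 4.94 and the neural list 4.51 RPKM in MEFs. In CCs the epithelial list summed to 138 to 199 RPKM and the endothelial list to 0.602 to 21.1, and the blood list reached 8.53. The cumulus and granulosa list of 20 genes did not separate the donors as a sum, with 765 to 1645 RPKM in CCs and 524 to 1260 in MEFs. Of its 15 genes tested, Cyp11a1 and Star of steroid synthesis, their regulator Nr5a1 and the inhibin subunit Inha were higher in CCs, Ptx3 was higher in MEFs (mean 625 against 6.70 RPKM) and 10 did not pass. Tnfaip6 stood at 109 RPKM in MEFs and 139 in CCs, Foxl2 was at 0 in MEFs, and Lhcgr, Has2 and Cyp19a1 were listed at 0 in CCs.

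RefSeq promoter sequences (GRCm38.p6) were found for 6 members: Twist1, Twist2, Prrx1, Postn, Vim and Acta2. Of these, 4 are shown, each as the 250 bases before the start, because Postn and Acta2 carried the largest differences, Vim was used by both donors, and Twist1 was the transcription factor read in the most NTM embryos (6 of 18). Capitals mark TATAA on the gene strand within the last 50 bases before the start, the core of a TATA box. They also mark CANNTG, the general E-box pattern, which reads the same on both strands and does not tell which protein binds. No marked TATAA and CANNTG overlap.
Twist1, chr12:33957421-33957670, plus strand: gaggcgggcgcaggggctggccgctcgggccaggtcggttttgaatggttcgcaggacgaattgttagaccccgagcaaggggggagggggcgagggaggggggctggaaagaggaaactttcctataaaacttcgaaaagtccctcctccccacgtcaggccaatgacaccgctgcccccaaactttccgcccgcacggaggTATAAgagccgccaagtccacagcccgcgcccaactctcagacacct
Postn, chr3:54360857-54361106, plus strand: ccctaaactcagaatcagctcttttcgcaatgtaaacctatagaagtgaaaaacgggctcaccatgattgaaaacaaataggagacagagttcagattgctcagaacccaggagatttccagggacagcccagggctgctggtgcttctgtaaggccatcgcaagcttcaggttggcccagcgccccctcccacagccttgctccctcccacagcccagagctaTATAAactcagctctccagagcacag
Vim, chr2:13574061-13574310, plus strand: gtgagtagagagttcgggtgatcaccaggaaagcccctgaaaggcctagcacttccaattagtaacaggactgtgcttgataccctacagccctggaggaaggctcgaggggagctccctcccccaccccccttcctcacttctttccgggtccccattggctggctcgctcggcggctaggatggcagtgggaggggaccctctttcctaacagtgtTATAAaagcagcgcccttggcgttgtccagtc
Acta2, chr19:34255374-34255623, minus strand: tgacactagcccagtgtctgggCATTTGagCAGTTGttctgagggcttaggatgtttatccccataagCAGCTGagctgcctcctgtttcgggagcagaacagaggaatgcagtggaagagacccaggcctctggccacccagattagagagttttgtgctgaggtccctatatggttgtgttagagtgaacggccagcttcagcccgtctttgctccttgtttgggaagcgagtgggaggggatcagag
TATAA stood in this place in 3 of the 7 member promoters (Postn has a second, upstream start), against 4.93% of 32851 promoters of the same length. CANNTG stood in 1 of 7, that of Acta2 with 3 copies, against 66.2% of all promoters. Its form CAGGTG, searched on either strand, stood in 0 of 7, against 17.2% of all promoters. CG pairs numbered 18 in Twist1, 4 in this Postn promoter, 8 in Vim and 4 in Acta2, against a median of 6. The starts are those of RefSeq. By the GENCODE spans given below, the Vim window lies within its gene, and the Acta2 window mostly does. Another start would give another window, so these matches describe the letters of the windows only.

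By the GENCODE M21 annotation of GRCm38, the transcription factor genes lie at chr12:33957671-33959829 (Twist1, plus strand), chr1:91801461-91848028 (Twist2, plus), chr1:163245119-163313710 (Prrx1, minus) and chr16:14705852-14709385 (Snai2, plus). Thy1 lies at chr9:44043384-44048579 (plus), Postn at chr3:54361109-54391037 (plus) and Fn1 at chr1:71585520-71653200 (minus). Vim lies at chr2:13573927-13582826 (plus) and Acta2 at chr19:34241090-34255590 (minus). RPKM counts reads over the exons of each gene.

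The comparison of MEFs with CCs asks which of the 10 genes distinguish the donor cells before transfer. All 10 passed the filter of a mean RPKM of at least 0.5 over the libraries compared, and 9 were up-regulated in MEFs at an adjusted p (limma, Benjamini-Hochberg over all genes tested) under 0.05 with a change of 1 or more on the log2(RPKM + 1) scale, on which all log2 fold changes below are given. Of 11978 genes tested, 6.29% passed in either direction and 3.99% were up-regulated. Of the 10 members, 8 had a CC mean under 0.5 RPKM and passed the filter through MEFs, so they could be called in 1 direction only. The median log2 fold change was 5.14 over the members and 0.19 over all genes tested. In libraries of many cells, fewer cells of a type and less RNA per cell cannot be told apart, and an RPKM is a share of the RNA of its library.

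Among the transcription factors, Twist1 (ENSMUSG00000035799), a basic helix-loop-helix factor of mesoderm and neural crest, stood at 6.28, 29.2 and 14.0 RPKM in the 3 MEF libraries and at 0.0331, 0.0196 and 0 in the CCs. Its log2 fold change of 3.87 (SE 0.77, adjusted p = 0.0195) was the smallest of the 9. Twist2 (ENSMUSG00000007805), the close relative best known in dermal fibroblasts, stood at 55.0, 24.9 and 10.6 RPKM in MEFs and had 1 read in each CC library (log2 fold change 4.66, SE 0.77, adjusted p = 0.00808). The order of the MEF libraries differed between the pair, and the highest library exceeded the lowest 4.64-fold for Twist1 and 5.20-fold for Twist2, the widest spreads of the 10 genes. Without MEF replicate 2 neither was called (adjusted p = 0.0830 for Twist1 and 0.0594 for Twist2), and without MEF replicate 3 Twist1 was not (adjusted p = 0.0738).

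Prrx1 (ENSMUSG00000026586), a paired-type homeobox factor of limb and facial mesenchyme, stood at 47.5, 18.2 and 28.0 RPKM in MEFs and at 0.0242, 0.0114 and 0.02 in CCs. Snai2 (ENSMUSG00000022676), also called Slug, a zinc finger repressor of E-cadherin, stood at 35.2, 25.3 and 44.2 RPKM against 0.0395, 0.0156 and 0. No CC library came near the lowest MEF library for either gene, and the log2 fold changes were 4.88 (SE 0.67, adjusted p = 0.00330) for Prrx1 and 5.10 (SE 0.62, adjusted p = 0.00190) for Snai2.

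The surface proteins separated the donors as widely. Thy1 (ENSMUSG00000032011), a small lipid-anchored glycoprotein used to sort fibroblasts, stood at 56.6, 49.6 and 77.0 RPKM in MEFs and at 0.0463, 0.0182 and 0.0548 in CCs, 1535.6-fold lower on the means (log2 fold change 5.88, SE 0.58, adjusted p = 0.000608). Pdgfrb (ENSMUSG00000024620), the receptor for PDGF-BB on fibroblasts and pericytes, stood at 29.5, 49.4 and 41.4 RPKM against 0.0537, 0.00577 and 0.0174 (log2 fold change 5.29, SE 0.61, adjusted p = 0.00144).

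The matrix and contractile genes held the highest levels. Postn (ENSMUSG00000027750), periostin, a matricellular protein of periosteum and healing tissue, stood at 763, 582 and 1400 RPKM in MEFs and 0.464, 0.422 and 0.364 in CCs (log2 fold change 9.24, SE 0.46, adjusted p = 1.46e-05). Acta2 (ENSMUSG00000035783), the smooth muscle actin of activated fibroblasts, stood at 657, 743 and 1528 RPKM against 0.466, 0.462 and 0.534 (log2 fold change 9.25, SE 0.46, adjusted p = 1.46e-05). For both genes the 3 MEF libraries lay about 3 orders of magnitude above the CCs, 2196-fold for Postn and 2003-fold for Acta2 on the means.

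Fn1 and Vim were the members that CCs also used. Fn1 (ENSMUSG00000026193), fibronectin, the adhesive glycoprotein of matrix, stood at 114, 203 and 184 RPKM in MEFs and at 11.8, 1.79 and 1.54 in CCs (log2 fold change 5.18, SE 0.68, adjusted p = 0.00287). CC replicate 1 stood above the other CC libraries, and all 3 lay under every MEF library. Vim (ENSMUSG00000026728), the intermediate filament of mesenchymal cells, stood at 367, 261 and 244 RPKM in MEFs and at 132, 67.9 and 157 in CCs. Its groups did not overlap, but the log2 fold change of 1.34 (SE 0.38) had an adjusted p of 0.0816 and was not called.

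**Figure D1:**
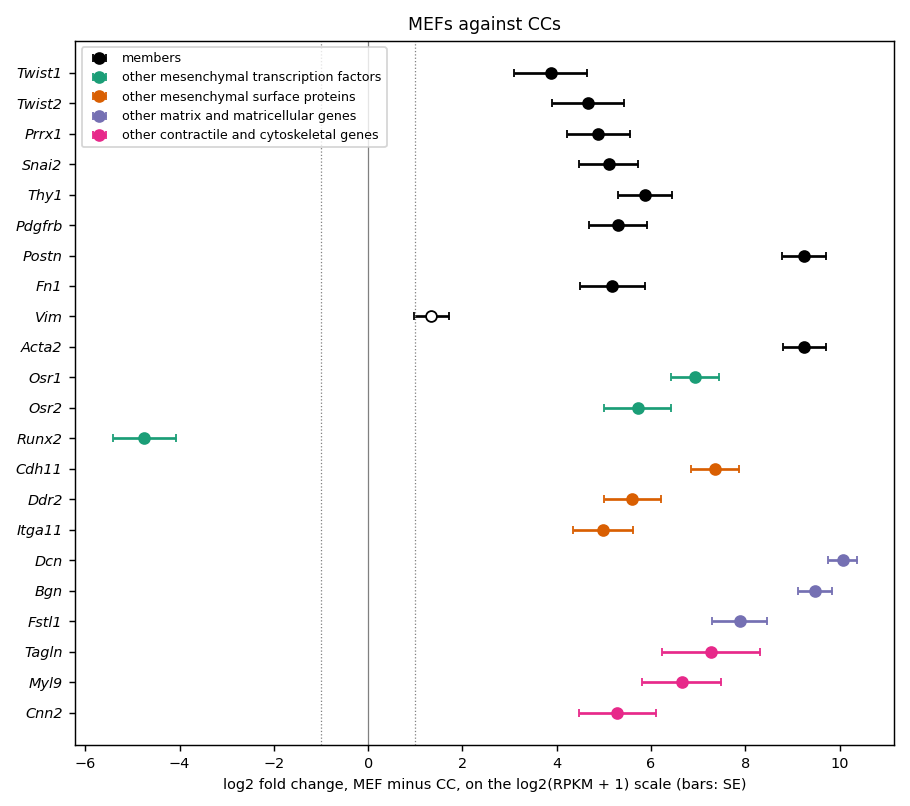
Log2 fold change of MEFs minus CCs on the log2(RPKM + 1) scale (x axis) for the 10 members and for the 3 called genes with the largest change in each of the 4 other mesenchymal lists (y axis), with bars of 1 SE; dotted lines mark a log2 fold change of 1 in size. Filled points passed the test, and Vim (1.34) is open. Postn and Acta2 lie above 9, and Runx2 is the gene on the CC side.

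Other genes of the same functions were less uniform. Of 22 other matrix and matricellular genes, all were tested, 16 were up-regulated in MEFs and 6 did not pass (median log2 fold change 6.11). The leaders were Dcn and Bgn, small leucine-rich proteoglycans, with log2 fold changes of 10.06 (SE 0.31) and 9.48 (SE 0.36), and Fstl1, a secreted glycoprotein, with 7.88 (SE 0.58). Dcn stood at 3343, 2982 and 3372 RPKM in MEFs and 2.58, 1.78 and 1.76 in CCs.

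Of 15 other mesenchymal transcription factors in the table, 11 were tested, 3 were up-regulated and 1 was down-regulated in MEFs. Osr1 and Osr2, zinc finger factors of intermediate mesoderm and limb, were up-regulated by 6.93 (SE 0.51) and 5.72 (SE 0.71). Runx2, the master factor of bone, went the other way. It stood at 66.6, 98.2 and 119.9 RPKM in CCs and at 2.18, 7.21 and 0.610 in MEFs (log2 fold change -4.75, SE 0.67, adjusted p = 0.00399).

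Of the 16 other surface proteins, 15 were tested, 4 were up-regulated and 1 was down-regulated. The leaders were the cadherin Cdh11 (7.35, SE 0.51), the collagen receptor Ddr2 (5.60, SE 0.60) and the collagen-binding integrin Itga11 (4.98, SE 0.63). Of the 14 contractile and cytoskeletal genes, 12 were tested and 5 were up-regulated, led by the actin-binding Tagln (7.27, SE 1.04), the myosin light chain Myl9 (6.66, SE 0.84) and the calponin Cnn2 (5.28, SE 0.82). Tagln and Myl9 were uneven among CCs: replicate 3 held 18 and 4.91 RPKM, and the other CC libraries at most 0.163.

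The comparison of NTM embryos with MEFs sets the level of the members after transfer beside that in the donor cells. All 10 members were down-regulated at all 6 stages, 60 of 60 comparisons, against 55.2% of all genes tested that passed in either direction at the 1-cell stage, 39.5% at the 2-cell, 28.5% at the 4-cell, 42.3% at the 8-cell, 41.9% at the morula and 30.8% at the blastula stage. The share down-regulated was 29.9%, 25.2%, 20%, 30.2%, 31.9% and 19.8% in the same order. All members passed the filter through their level in MEFs, so this count could run in 1 direction only. An RPKM is a share of a library, so the values give proportions and not copies per embryo.

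The members were low in NTM embryos from the 1-cell stage on. These embryos hold the RNA of an oocyte beside that of the injected nucleus. From which of them a read came was not tested. Acta2 had no read in any of the 3 NTM 1-cell embryos, which by counting (3 reads over the group) leaves MEFs at least 26324-fold higher. Twist1, Twist2, Snai2 and Pdgfrb also had no read there. Vim had 1 read in 1 of the 3 embryos, against 243.8 to 367.4 RPKM in MEFs (log2 fold change -8.16, SE 0.28, adjusted p = 4.39e-06). Of the 60 group means of NTM embryos, 32 were 0, 52 were under 1% of the MEF mean and 59 under 5%. The exception was Twist1 at the 2-cell stage, at 6.62%.

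Where embryos were near 0, the size of the difference was set by the MEF level and the pseudocount of 1. At the 1-cell stage the log2 fold change was -9.41 (SE 0.37) for Postn, -6.85 (SE 0.32) for Fn1 and -5.80 (SE 0.31) for Thy1. At the blastula stage it was -9.57 (SE 0.45), -5.86 (SE 0.78) and -5.31 (SE 0.60) for the same genes. Over all 60 comparisons the largest adjusted p was 0.0118, for Twist1 at the 2-cell stage (log2 fold change -2.98, SE 0.69). The median over the members was -5.57 at the 1-cell stage and -5.32 at the blastula stage, and that of all genes tested was -0.53 and -0.47. On the ratio of means without a pseudocount, with groups of 0 reads at their bound, the members' median log2 ratio of MEFs to NTM embryos was 10.07 at the 1-cell stage (9 members, 5 at their bound) and 10.66 at the blastula stage (10 members, 4 at their bound). Median-ratio scaling of the libraries moved the median of all genes by 0.13 to 0.49, and the share of calls that were up-regulated in embryos from 45.7%, 36.2%, 29.9%, 28.7%, 23.8% and 35.8% to 51.5%, 45.7%, 35.1%, 45.3%, 43.9% and 48.6%, in order of stage. The members' log2 fold changes then ran from -9.68 to -2.42, and all 60 were still called.

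**Figure D2:**
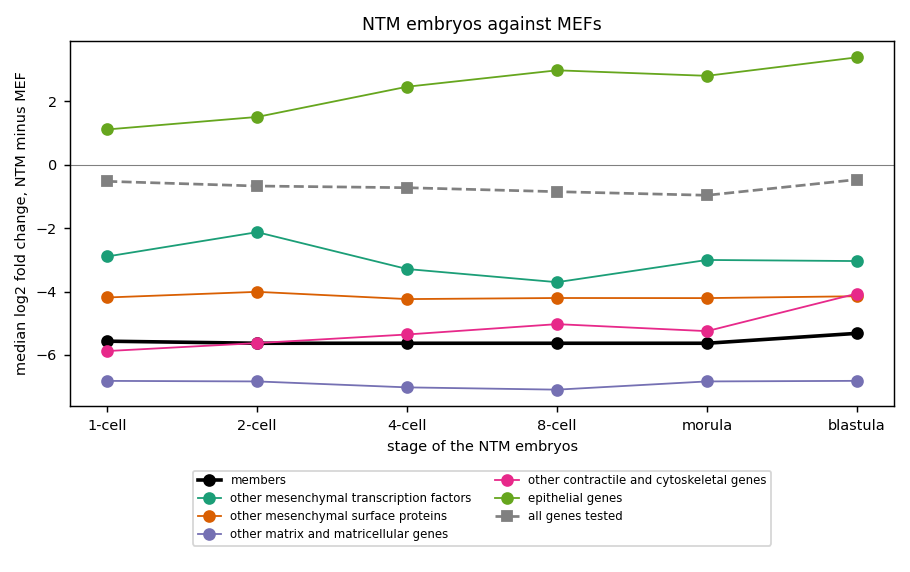
Median log2 fold change of NTM embryos minus MEFs (y axis) at 6 stages (x axis) for the 10 members, 4 other mesenchymal lists, the epithelial list and all genes tested. The members lie between -5.63 and -5.32 at every stage, and the epithelial list, of which 6 to 13 genes were tested depending on the stage, between 1.11 and 3.38.

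The other lists gave the same direction with more exceptions. Of the matrix list, 20 to 22 of 22 were down-regulated at each stage, and of the contractile list 11 of 12 or 13. Of the surface list, 12 to 14 of 14 or 15 were down-regulated, and of the transcription factors 7 or 8 of 11 to 13. Genes that were tested at each of the 6 stages and down-regulated at none were the transcription factors Tbx18, Runx2 and Sox9 and the calponin Cnn1, named after their values were seen, with MEF means of 2.15, 3.33, 5.71 and 3.01 RPKM. Foxc1, listed at 0 in MEFs, was up-regulated at 2 stages. In the epithelial list none was down-regulated at any stage. From the 1-cell stage to the blastula 3 of 6, 1 of 6, 6 of 11, 8 of 11, 7 of 8 and 12 of 13 genes tested were up-regulated, where 25.2%, 14.3%, 8.53%, 12.2%, 9.96% and 11% of all genes were. The list summed to at most 4.44 RPKM in MEFs, so its genes passed the filter mainly through the embryos and the set tested differs between stages.

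In NTC embryos the comparison with CCs had little to follow, because 8 of the 10 members had a CC mean under 0.5 RPKM. Only 2 or 3 members passed the filter at each stage, 16 comparisons in all. Vim was down-regulated at all 6 stages and no other member was called, 6 of 16, where 50%, 37.1%, 24.4%, 21.8%, 29.6% and 24.2% of all genes passed from the 1-cell stage to the blastula. The CC mean of Vim was 119 RPKM. NTC means were 0.325, 0.0356, 0, 0, 0.0494 and 0.592 RPKM over the 6 stages, and every NTC embryo lay under every CC library. The log2 fold change was -6.47 (SE 0.43, adjusted p = 0.000104) at the 1-cell stage and -6.33 (SE 0.59, adjusted p = 0.000554) at the blastula stage.

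Fn1 did not pass against CCs at any stage. Its log2 fold change ran from 0.02 (SE 0.72) at the 2-cell stage to -1.76 (SE 0.74, adjusted p = 0.119) at the morula stage, and 9 of 18 NTC embryos lay at or above the lowest CC library. Prrx1 at the NTC 1-cell stage stood above CCs, 1.12 against 0.0186 RPKM on the means, without passing (log2 fold change 0.99, SE 0.37, adjusted p = 0.0687). It was called with a pseudocount of 0.1 (adjusted p = 0.00989) and without NTC 1-cell replicate 3 (adjusted p = 0.0388).

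**Figure D3:**
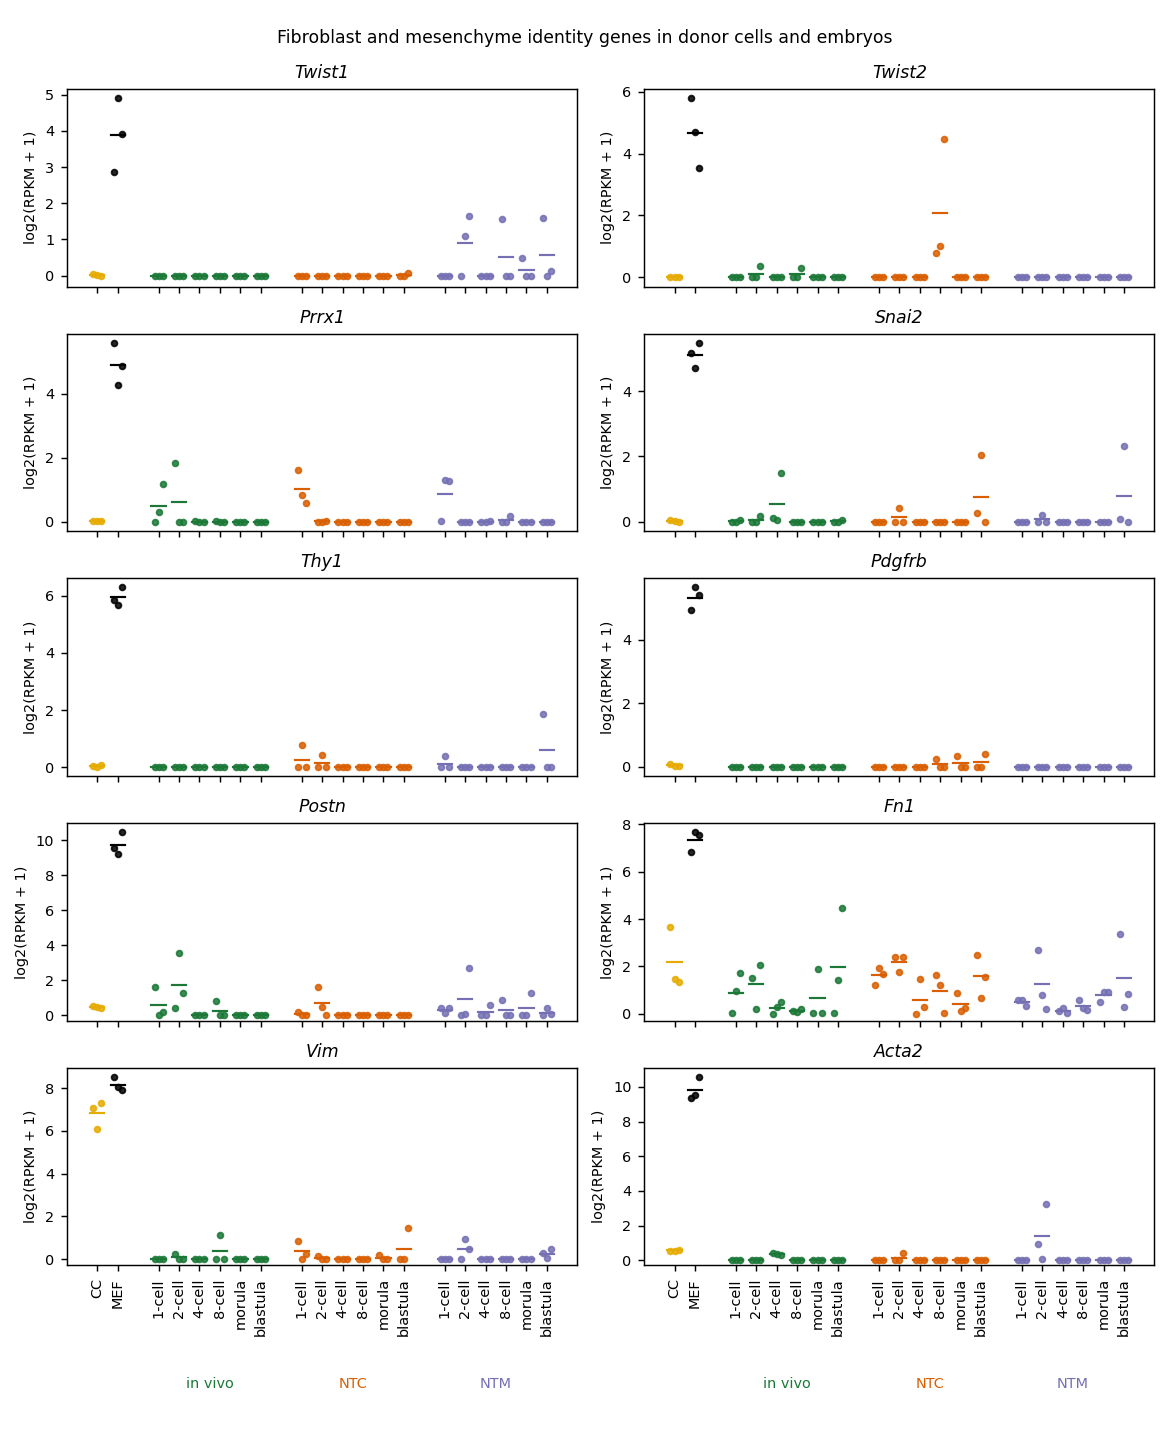
Level of each of the 10 genes, log2(RPKM + 1) on the y axis, in the 60 libraries by group on the x axis; points are libraries, short lines are group means (n = 3), and y axes differ between panels. MEFs stand highest for every gene, CCs come near them for Vim alone, and Fn1 is above 0 in 52 of 54 embryos. Other genes are above 0 in all 3 embryos of a few groups, such as Twist2 in NTC 8-cell (0.711, 1.03 and 21.2 RPKM) and Acta2 in in vivo 4-cell embryos.

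Of 540 embryo values (10 genes in 54 embryos), 142 were above 0, 118 rested on more than 3 reads, 43 exceeded 1 RPKM and 7 exceeded 5 RPKM. In vivo embryos had 41 of 180 values above 0 (22.8%), NTC embryos 46 (25.6%) and NTM embryos 55 (30.6%). Values in 1 embryo share its library and depth, so these shares are a description. In vivo embryos, which received no donor nucleus, give the background for the NT embryos.

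Fn1 was the member read in the most embryos, above 0 in 52 of 54. In 1-cell embryos it stood at 0.0164, 0.928 and 2.24 RPKM in vivo, at 1.34, 2.82 and 2.23 in NTC and at 0.508, 0.486 and 0.254 in NTM. The 3 NTM embryos lay under the 3 NTC embryos, while in vivo embryos spanned both. The log2 fold change of NTM minus NTC was -1.12 (SE 0.35) with an adjusted p of 0.0501 (unadjusted p = 0.0120 by limma), just outside the threshold, where 19.8% of all genes passed. At the 2-cell stage the NTC values were 4.32, 2.41 and 4.25 RPKM, and at the 4-cell stage 0, 1.78 and 0.200. All 3 NTC 2-cell embryos lay above the NTC 4-cell embryos, and the change of -1.61 (SE 0.56) had an adjusted p of 0.0529, where 36.6% of all genes passed. It was called without NTC 4-cell replicate 2 (adjusted p = 0.0291). In blastulas Fn1 stood at 0.00545, 1.67 and 20.9 RPKM in vivo, at 4.63, 0.580 and 1.95 in NTC and at 9.27, 0.220 and 0.761 in NTM. The range of the in vivo blastulas enclosed those of both NT types.

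Postn was above 0 in 23 embryos. The highest was in vivo 2-cell replicate 2 with 11.1 RPKM (1337 reads), beside 0.346 and 1.43 in the other in vivo 2-cell embryos, followed by NTM 2-cell replicate 3 with 5.65. In vivo 4-cell embryos had none. The in vivo change from 2-cell to 4-cell of -1.77 (SE 0.78) had an adjusted p of 0.0937, where 52.2% of all genes passed, and without in vivo 2-cell replicate 1, a library nearest to a 1-cell embryo, it was -2.44 (adjusted p = 0.0353). Without replicate 3, the other library nearest to a 1-cell embryo, it was not called. Replicate 2 holds the highest value and remains in both of these fits. NTM 1-cell embryos held 0.341, 0.117 and 0.327 RPKM and in vivo 1-cell embryos 2.15, 0 and 0.139, so the ranges overlapped (log2 fold change -0.28, SE 0.54, adjusted p = 0.818, where 1.28% of all genes passed). A difference of NTM from in vivo 1-cell embryos in Postn was not detectable at this depth and spread.

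Prrx1 was the transcription factor read in 1-cell embryos of every type. It stood at 0, 0.244 and 1.28 RPKM in the in vivo 1-cell embryos, at 2.09, 0.794 and 0.485 in NTC and at 0.0128, 1.44 and 1.42 in NTM. From the 2-cell stage on, its highest value was 2.57 RPKM (529 reads) in in vivo 2-cell replicate 1, and no other embryo of these stages reached 0.2. That library is one of the 2-cell libraries nearest to a 1-cell embryo, and without it in vivo 2-cell embryos had no Prrx1 read. The change from the 1-cell to the 2-cell stage in NTC embryos was -1.01 (SE 0.44, unadjusted p = 0.0495, adjusted p = 0.169) and did not pass, against 13.5% of all genes.

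Twist1 and Twist2 were read in opposite NT types. Twist1 had no read in the 18 in vivo embryos and 1 read in NTC embryos, but stood at 0, 1.12 and 2.15 RPKM in the NTM 2-cell embryos. It also stood at 1.93 in 1 NTM 8-cell embryo, 0.390 in 1 morula and 2.00 in 1 blastula. Twist2 had no read in the 18 NTM embryos and stood at 0.711, 1.03 and 21.2 RPKM (33, 55 and 1438 reads) in the NTC 8-cell embryos. The last of these values lies above the lowest MEF library (10.6 RPKM), the only one of 540 embryo values to reach its gene's MEF range. In vivo embryos held Twist2 in 2 of 18, at most 0.286 RPKM, in in vivo 2-cell replicate 3, a library nearest to a 1-cell embryo.

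Neither pattern passed the test. Twist1 in NTM against in vivo 2-cell embryos had a log2 fold change of 0.91 (SE 0.65, adjusted p = 0.711), where 0.141% of all genes passed. Twist2 in NTC 8-cell embryos was higher by 2.00 (SE 0.92, adjusted p = 0.254) than in vivo, where 1.46% passed, and NTM minus NTC was -2.09 (SE 0.89, unadjusted p = 0.0388, adjusted p = 0.359), where 0.0507% passed. With 1 spread estimated over all 20 groups these Twist2 differences were called (adjusted p = 0.00222 against in vivo, 0.00280 against NTM). The shares of all genes just given are those of the pairwise fits, and those under the single spread are not given here. Exons of Twist2 overlap those of an antisense gene, Gm29100, over 1477 nt. Exons of Fn1 overlap the antisense gene Apol7d over 292 nt, and whether reads were counted by strand is not given in the sources used here.

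Snai2 was read in 12 embryos, Thy1 in 4 and Pdgfrb in 3. Snai2 stood at 0.186, 3.16 and 0 RPKM in NTC blastulas and at 0.0549, 3.96 and 0 in NTM blastulas, against 0, 0 and 0.0429 in vivo. In vivo 4-cell embryos, which hold no donor nucleus, stood at 0.0749, 0.0330 and 1.81 RPKM (2, 1 and 60 reads), the one group with Snai2 above 0 in all 3 embryos. Thy1 had no read in vivo and stood at 0.724 and 0.337 RPKM in 1 NTC 1-cell and 1 NTC 2-cell embryo, 0.312 in 1 NTM 1-cell embryo and 2.67 in NTM blastula replicate 1. That blastula also held Twist1 at 2.00 and Fn1 at 9.27 RPKM, the highest NTM value of Fn1, and 5 of the 10 members above 0. Pdgfrb had no read in the 18 in vivo and 18 NTM embryos and stood at 0.175, 0.247 and 0.304 RPKM in 3 NTC embryos from the 8-cell stage on.

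Vim and Acta2, among the most abundant MEF members, were nearly silent in embryos. Vim was above 0 in 2 in vivo, 6 NTC and 7 NTM embryos and reached at most 1.77 RPKM, in NTC blastula replicate 3, 137.3-fold under the lowest MEF library. Acta2 stood at 0.946, 0.0408 and 8.48 RPKM in the NTM 2-cell embryos and at 0.342, 0.301 and 0.241 (7 or 8 reads each) in the in vivo 4-cell embryos. Only 1 other embryo had a read of it. The NTM 2-cell embryos differed from in vivo, where all 3 were at 0, by 1.42 (SE 0.84, adjusted p = 0.657), and 1 library carried most of that difference.

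**Figure D4:**
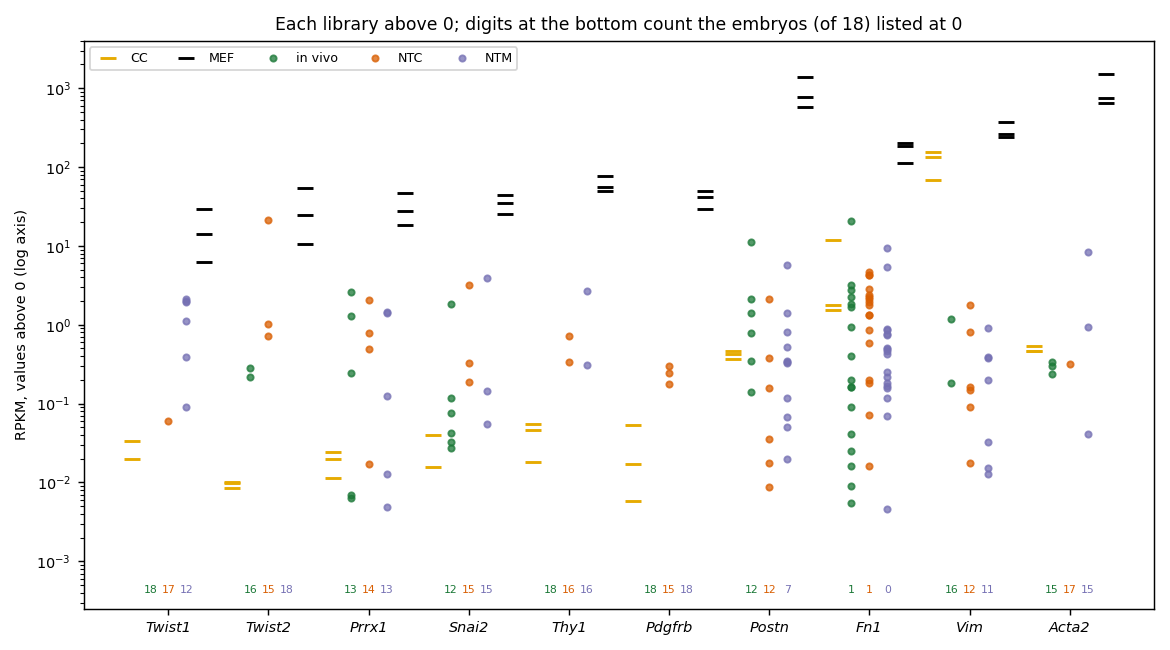
Values above 0 of the 10 genes (x axis) in RPKM on a log axis (y axis), with dashes for the 3 CC and 3 MEF libraries and points for in vivo, NTC and NTM embryos; the digits count the embryos of each type, of 18, listed at 0. Embryo points lie below the MEF dashes except Twist2 in 1 NTC 8-cell embryo (21.2), and Fn1 is above 0 in 52 of 54 embryos.

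Counted over the design, 0 member comparisons were called between embryo groups. For NT against in vivo embryos 19 of 120 possible member comparisons passed the filter, 0 were called and 0 had an unadjusted p under 0.05 (limma), where 5.83% of all tests over the 12 comparisons passed (0.0321% to 27.8% in single comparisons, median 1.22%). In 3 of these 12 comparisons no member was tested. Among them were both at the 4-cell stage, where 27.8% (NTC) and 21.1% (NTM) of all genes passed. For NTM against NTC embryos 11 of 60 were tested, 0 called and 2 had an unadjusted p under 0.05, where 3.47% passed. For transitions between successive stages 26 of 150 were tested, 0 called and 4 had an unadjusted p under 0.05, where 14.5% passed. For the difference of a transition between NT and in vivo embryos, an interaction term, 18 of 100 were tested, 0 called and 0 had an unadjusted p under 0.05, where 6.83% passed. No member was tested in 1 of 6 NTM against NTC comparisons, 3 of 15 transitions and 2 of 10 differences of transitions. The untested transitions include in vivo 4-cell to 8-cell, where 43.7% of all genes passed. The pooled shares therefore also cover comparisons without a tested member. One spread over all 20 groups gave 2, 2, 6 and 2 calls in the order above, from NT against in vivo embryos on, all of Twist2, Acta2, Postn or Prrx1. The share of all genes called under that fit is not given here, so these counts have no background beside them. At 1 embryo per library and 3 per group, values such as 0.186, 3.16 and 0 RPKM (Snai2 in NTC blastulas) leave wide errors, so a difference was not detectable rather than absent.

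MEFs were the highest of the 20 groups for all 10 members, while the next highest differed by gene: CCs for Vim, NTM 2-cell embryos for Twist1 and Acta2, and NTC 8-cell embryos for Twist2. The members were chosen as fibroblast genes with earlier results known, so the rank of MEFs can restate the choice. The share of all genes with this rank was not counted. The Pearson correlation of a gene's group means with the mean of the other 9 members ran from 0.768 for Vim and 0.886 for Twist2 to 0.985 for Pdgfrb. These values are set by the MEF group, with most other groups near 0, and do not show a shared profile among embryos. Among 13525 other genes, the profiles most like the mean of the members over 20 groups were those of Olfml3 (r = 0.996), Cped1 (0.996), Col5a1 (0.996), Fam20a (0.996) and B830012L14Rik (0.995). Col5a1, a fibrillar collagen chain, stood at 573.7 ± 198.9 RPKM (SD, n = 3) in MEFs, 1.67 in CCs and at most 0.971 in any embryo. Olfml3, a secreted glycoprotein, stood at 36.1 ± 23.2 RPKM (SD, n = 3) in MEFs and at most 0.724 in embryos, and Fam20a, a secretory pathway pseudokinase, at 45.2 ± 30.6 (SD, n = 3) and 0.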

How the data were processed

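Libraries were made from single embryos or donor cells by poly(A) tailing and amplification without molecular identifiers. The authors aligned reads with TopHat, counted them per gene with HTSeq and deposited normalised RPKM values. The submitters' notes also name Bowtie 0.12.2 and build mm8. Exon lengths of GENCODE M21 (GRCm38) returned whole reads for 20650 genes (within 0.02 reads), which gave depth and read numbers. For Twist1, Snai2, Thy1 and Acta2 the smallest length that gave whole reads was used. Intervals and the floor of 3 reads cover counting error only.

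log2(RPKM + 1) of genes with a mean of at least 0.5 RPKM was fitted per pair of groups with limma 3.58.1 (R 4.3.3, eBayes with trend). The code was run on simulated data with the same spread in the groups compared and changes planted in genes of middle level. That simulation does not cover genes at 0 in most embryos. Summaries used Python 3.11.15, numpy 2.4.6 and pandas 2.3.3. Embryos of a stage came from several independent collections per the labels, but which libraries share one is not given here, nor how donor libraries relate, so p-values measure the spread between libraries. Members and gene lists were chosen with earlier results of these data known. Genes named by rule are the members, the 3 called genes of largest change in MEFs against CCs in each other mesenchymal list, the 5 most alike and marker genes listed at 0. All others, such as Ptx3, Tnfaip6, Cyp11a1, Star, Nr5a1, Inha, Krt8 and Krt18, were named after their values were seen. Same-numbered replicates did not deviate together (no comparison had all 3 correlations over 0.1), so the number was not used as a block. Alternatives were a pseudocount of 0.1, no filter, median-ratio scaling, 1 fit over 20 groups, the replicate block, no fold threshold and leaving out each library.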

Additional observations from a re-analysis of the deposited data

How the results depend on the processing

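Of the 75 called member comparisons, all kept their direction under all alternatives. Without a filter on low values Twist1 was lost from MEFs against CCs (8 members called). One fit over all 20 groups, which lends every group the same spread, gave 10 members in MEFs against CCs, 8 comparisons in NTC embryos against CCs, 2 in NT against in vivo embryos, 2 in NTM against NTC embryos, 6 stage transitions and 2 differences of transitions. The shares of all genes called under the alternatives are not given here. Stage transitions had 1 call each with a pseudocount of 0.1 (Postn, in vivo 2-cell to 4-cell) and with median-ratio scaling (Fn1, NTC 2-cell to 4-cell). Leaving out single libraries gave 7 to 9 members in MEFs against CCs, 60 to 60 comparisons of NTM embryos with MEFs, 6 to 7 of NTC embryos with CCs and 0 to 1 stage transitions, and 0 to 0 in the other 3 families. The transition calls came without in vivo 2-cell replicate 1 (Postn), in vivo 2-cell replicate 2 (Fn1) or NTC 4-cell replicate 2 (Fn1). The replicate block changed no call: it gave 9 members in MEFs against CCs, 60 comparisons of NTM embryos with MEFs, 6 of NTC embryos with CCs and 0 in the other families. Dropping the fold threshold gave the same 9, 60, 6 and 0. The cause of these changes was not tested. Depth limits the low members: 3 reads over an NTM 1-cell group equal 0.0409 RPKM of Twist1 and 0.00565 RPKM of Fn1, and levels under these are not resolved.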

Other observations

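Lists of other cell types gave the surroundings of these genes. In MEFs against CCs the cumulus and granulosa list had 4 genes down-regulated and 1 up-regulated of 15 tested. The up-regulated gene was Ptx3, a pentraxin of the cumulus matrix. The epithelial list had 2 down-regulated of 4 tested, the keratins Krt8 and Krt18. The oocyte, endothelial, blood and neural lists had 0 called of 2 tested each, and no skeletal muscle gene was tested. The summed oocyte list was at most 5.83 RPKM in donor cells and reached 5121 RPKM in NTM embryos, 3559 in NTC embryos and 4961 in vivo. The cumulus and granulosa list summed to 0 to 23.8 RPKM in in vivo embryos, 4.04 to 60.5 in NTC and 0.262 to 61.5 in NTM embryos, against 765 to 1645 in CCs and 524 to 1260 in MEFs, so the summed list is not particular to CCs. Endothelial, blood, neural and skeletal muscle lists in embryos reached at most 54.0, 26.0, 124.7 and 3.71 RPKM.

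Between NT and in vivo embryos the other mesenchymal lists had 9 calls in 232 tests over 12 comparisons, where 5.83% of all tests passed, so calls in these lists were not more frequent than among all genes. Of the transcription factors 3 comparisons were down-regulated (Snai1 at 2, Osr2 at 1), of the matrix genes 4 (Loxl1 and Loxl2 at 2 each) and of the contractile genes 1 (Lmna). Of the surface proteins 1 was up-regulated, the TGF-beta co-receptor Eng. These genes were named after their values were seen.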
